A study of Mus musculus with 8 samples.

Results

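Glucose uptake, glycolysis and the response to low oxygen were followed through 40 genes in the ventricles of mouse embryos. The genes were chosen by symbol, for their known roles, from the 53465 genes of the count table, and all 40 were found and passed the filter on low counts that left 15388 genes for testing. They are 3 glucose transporters, 16 glycolytic enzymes, 4 genes of lactate formation and transport, 4 regulatory kinases, 5 genes of the hypoxia-inducible factor (HIF) and its oxygen sensing, and 8 HIF targets outside metabolism. Polyadenylated RNA was sequenced at embryonic day 15.5 from 4 WT libraries and 4 libraries of the genotype Nrg-1flox;Cdh5-CreERT2, called labelled-Flox libraries from here on. In that line a tamoxifen-inducible Cre under the Cdh5 promoter, active in endothelial cells, is meant to delete floxed Nrg1 (neuregulin-1), a growth factor made by the endocardium. The tamoxifen schedule is not given in the sources used here, nor whether the WT embryos carried Cre or received tamoxifen. The series gives 1 ventricle per replicate. Most libraries held transcripts of both sexes, as given below, so the number of embryos in a library is uncertain. The p-values measure only the spread between these libraries.

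Glycolysis splits glucose into pyruvate in a chain of cytosolic steps, and lactate dehydrogenase turns pyruvate into lactate, which leaves the cell through monocarboxylate transporters. The fetal heart is known for its reliance on this route before birth. HIF is a dimer whose alpha subunit is hydroxylated by the EGLN enzymes when oxygen is ample, after which the VHL protein marks it for degradation. When oxygen is low the alpha subunit persists, and the dimer binds promoters and enhancers of genes for glycolysis as well as for mitophagy, collagen hydroxylation and chromatin, so that glycolytic enzymes and HIF targets outside metabolism can be read side by side.

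The core letters that HIF binds, ACGTG or GCGTG on either strand, were counted in RefSeq promoter windows of 300 bases on GRCm38.p6, from 250 bases before to 50 bases after a transcription start. The palindrome CACGTG holds ACGTG on both strands and counts as 2 overlapping matches. Windows were given for 36 of the 40 genes, and 43 of their 55 windows (78.2%) held the letters, beside 14380 of all 32851 windows (43.8%). The share was 73.1% for the glycolytic enzymes (19 of 26 windows) and 72.7% for the non-metabolic HIF targets (8 of 11 windows). All windows together came from 27025 genes, whether or not they passed the filter, while all 40 genes passed it. The letters also hold CG, and the CG content of the windows was not compared. The shares of the 40 genes and of all windows are therefore not a like comparison. The windows of 4 genes are shown, 5′ to 3′ on the gene's strand with matches in capitals, because Slc16a3, Pfkp and Bnip3 lead the results below and Ldha held the most matches of any window of the 40 genes. They are Slc16a3 at chr11:120948817-120949116 on the plus strand with 2 matches, Bnip3 at chr7:138909457-138909756 on the minus strand with 5, Pfkp at chr13:6648722-6649021 on the minus strand with 4, and the more upstream Ldha window at chr7:46845554-46845853 on the plus strand with 7.
Slc16a3: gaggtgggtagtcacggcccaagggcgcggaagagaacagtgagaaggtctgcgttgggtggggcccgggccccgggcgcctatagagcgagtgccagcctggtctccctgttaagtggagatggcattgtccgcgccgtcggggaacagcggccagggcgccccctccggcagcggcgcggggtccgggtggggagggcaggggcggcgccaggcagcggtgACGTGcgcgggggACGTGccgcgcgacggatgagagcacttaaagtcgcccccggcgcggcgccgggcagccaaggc
Bnip3: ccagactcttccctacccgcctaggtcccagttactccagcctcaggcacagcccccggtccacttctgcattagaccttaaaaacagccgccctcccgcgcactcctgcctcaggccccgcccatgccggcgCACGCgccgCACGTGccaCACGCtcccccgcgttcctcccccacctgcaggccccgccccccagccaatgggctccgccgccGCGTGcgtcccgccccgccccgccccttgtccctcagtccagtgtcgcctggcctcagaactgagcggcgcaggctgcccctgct
Pfkp: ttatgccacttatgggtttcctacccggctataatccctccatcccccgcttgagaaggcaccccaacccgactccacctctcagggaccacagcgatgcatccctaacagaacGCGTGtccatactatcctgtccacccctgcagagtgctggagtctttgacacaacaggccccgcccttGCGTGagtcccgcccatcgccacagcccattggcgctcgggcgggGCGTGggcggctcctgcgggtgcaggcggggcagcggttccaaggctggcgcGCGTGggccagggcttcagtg
Ldha: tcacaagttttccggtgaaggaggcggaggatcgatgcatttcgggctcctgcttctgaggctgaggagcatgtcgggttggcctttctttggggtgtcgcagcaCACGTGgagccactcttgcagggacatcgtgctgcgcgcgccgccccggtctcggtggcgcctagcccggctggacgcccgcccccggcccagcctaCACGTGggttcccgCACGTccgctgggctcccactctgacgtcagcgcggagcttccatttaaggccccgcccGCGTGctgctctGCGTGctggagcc
The capitals CACGT and CACGC are the same letters read on the other strand. In Bnip3, 1 CACGTG gives 2 of the 5 matches, and in Ldha 2 of them give 4 of the 7. A match is a description of the letters and not of HIF binding.

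Library totals ranged from 16761763 to 24144272 expected counts, and no library was a copy of another. Levels are given in CPM, counts scaled to a common library size. Nrg1 itself stood at 5.46, 4.64, 4.08 and 5.32 CPM in WT libraries 1 to 4, against 6.81, 6.35, 6.15 and 5.36 CPM in labelled-Flox libraries 1 to 4. The gene-level count thus was not lower under the mutant label (log2 fold change 0.34, SE 0.12, edgeR FDR = 0.311). It includes exons outside any deleted part, and it does not check the deletion. WT library 4 held 0.192 CPM of Xist, a transcript of female cells, while the other 7 libraries held 103 to 327 CPM of Xist together with 42.9 to 122 CPM of Y-linked transcripts, although a single embryo has 1 sex. Xist ran from 0.192 to 206 CPM in WT and from 103 to 327 CPM in labelled-Flox libraries. By group, the Y-linked sum spanned 69.3 to 171 CPM for WT but 42.9 to 120 CPM under the mutant label. Labelled-Flox libraries 1 to 3, at 68.3, 42.9 and 58.45 CPM, were below every WT library, and library 4 was within the WT range. The Y-linked sum and the genotype label were thus partly confounded, which limits the fits below that include this sum. Among the tissue markers, all 10 ventricular genes were above 1 CPM, and their sum overlapped between WT (46320 to 50840 CPM) and labelled-Flox libraries (45450 to 51780 CPM). Of the 10, only Nkx2-5 passed the test (log2 fold change 0.21, edgeR FDR = 0.0194). The erythroid markers summed to 4304 to 9406 CPM in WT and 5888 to 10030 CPM in labelled-Flox libraries.

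Of the 40 genes, 1 differed between the groups in edgeR's quasi-likelihood test at a false discovery rate (FDR) below 0.05 over all tested genes, the lactate exporter Slc16a3, which was higher in labelled-Flox libraries. Over all 15388 tested genes the share called was 0.526%. At an unadjusted p below 0.05 there were 5 of the 40 (12.5%), beside 10.5% of all tested genes, which is close to the background. Of these, Slc16a3, Pfkp, Bnip3 and Egln3 were higher, beside 5.13% of all genes in that direction, and Epas1 was lower. The 4 WT and 4 labelled-Flox values did not overlap for 5 of the 40 (12.5%), beside 6.05% of all genes. These were Slc16a3, Pfkp, Bnip3 and Kdm3a on the higher side, where the share of all genes was 3.07%, and Epas1 on the lower side. The 40 genes were measured with a smaller median SE, 0.038 beside 0.065 over all tested genes. The shares over all genes are therefore not a like comparison. Log2 fold changes were above 0 for 28 of the 40 genes (70.0%), beside 49.4% of all tested genes, with a median of 0.028 and a range from -0.16 to 0.20. With the summed Y-linked transcripts in the fit, 24 of the 40 were above 0 and 16 below, with a median of 0.014.

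**Figure D1:**
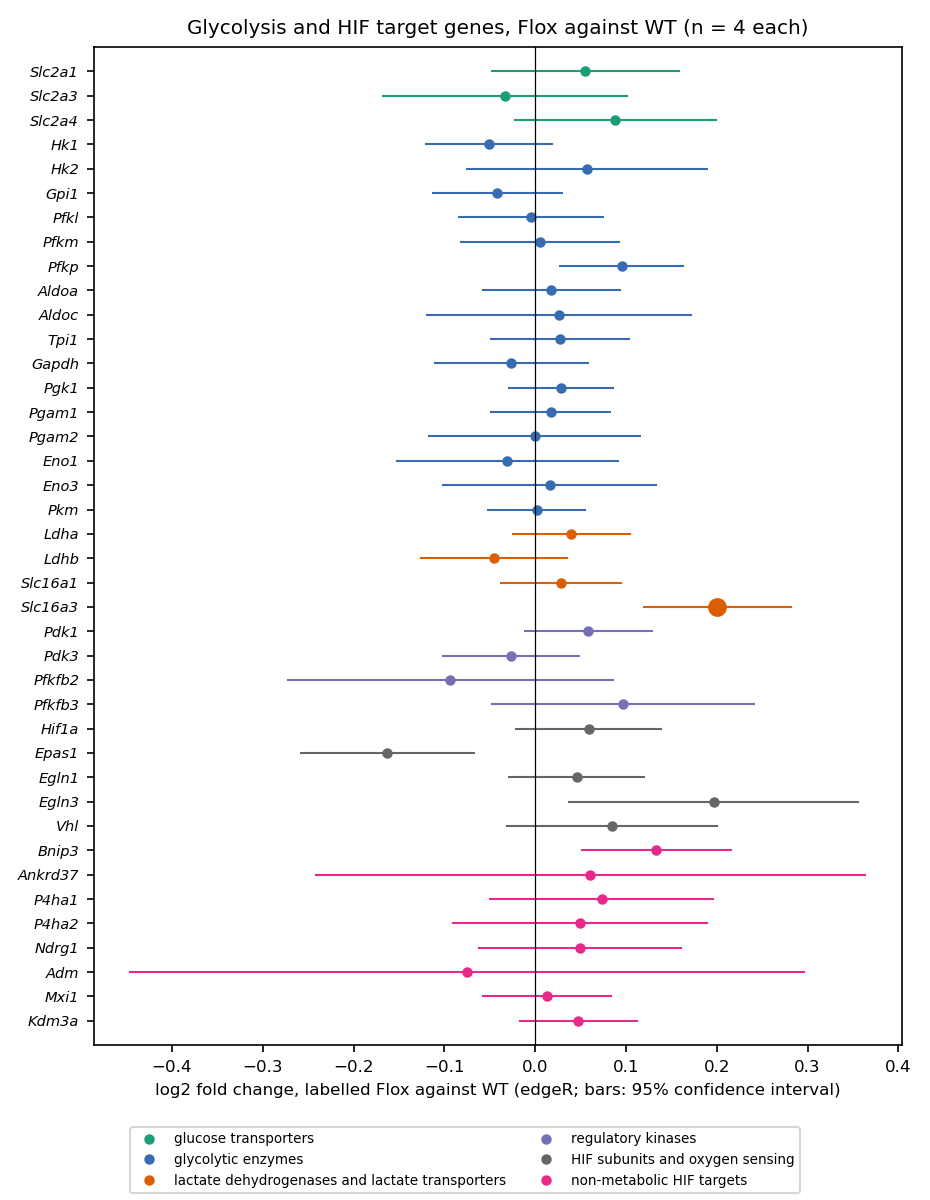
Log2 fold change of each of the 40 genes, labelled-Flox against WT libraries (x axis), with 1 row per gene, coloured by role. Points are edgeR estimates, bars are 95% confidence intervals, and n = 4 libraries in each group. The large point marks Slc16a3 at 0.20, which alone had an FDR below 0.05, and the intervals of Pfkp, Bnip3, Egln3 and Epas1 also leave out 0.

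Transcript levels set the frame for these changes. Compared per length of exon, as RPKM (CPM per kilobase of exon) averaged over the 4 WT libraries, the most abundant were the aldolase Aldoa at 697 ± 16.8 (SD), the phosphoglycerate kinase Pgk1 at 591 ± 6.198 and the lactate dehydrogenase subunits Ldha at 513 ± 3.48 and Ldhb at 511 ± 9.96. Ldha and Ldhb were indistinguishable within that spread by RPKM, while by CPM they averaged 1698 and 803 in WT. The length is a gene's union of exons, and the order of the genes depends on it. The triose phosphate isomerase Tpi1 was at 452 ± 3.69 RPKM, the muscle phosphoglycerate mutase Pgam2 at 401 ± 8.08 and the pyruvate kinase Pkm at 394 ± 1.18. The non-metabolic HIF targets lay much lower, from 3.66 for Ankrd37 and 3.70 for Adm to 78.0 for Bnip3. The lowest of the 40 was Pfkfb2, a kinase that makes the phosphofructokinase activator fructose 2,6-bisphosphate, at 1.395 RPKM.

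**Figure D2:**
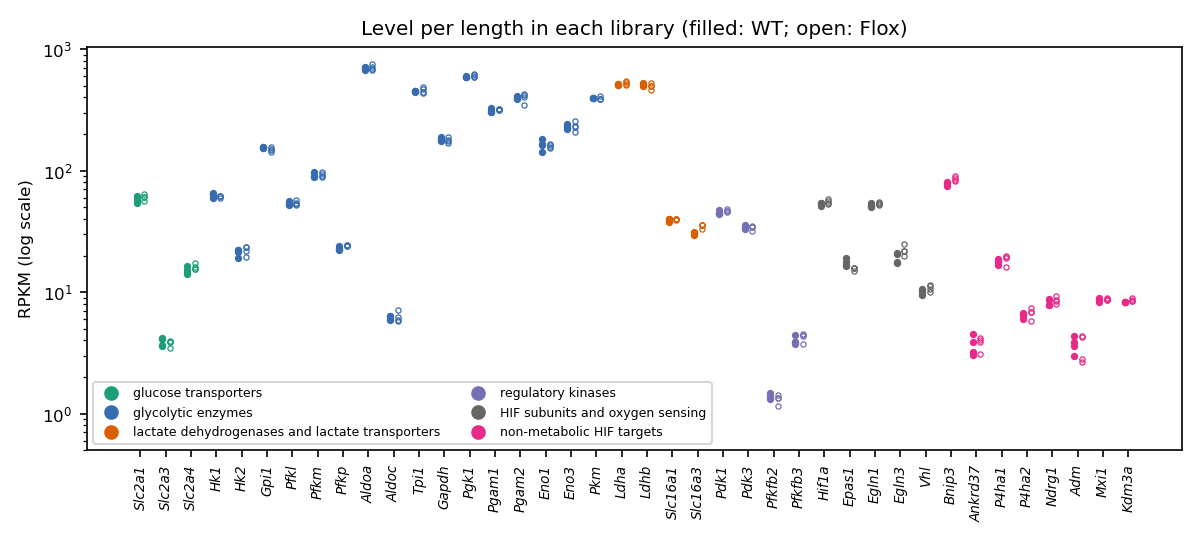
Level per exonic length of each of the 40 genes in every library, as RPKM on a log scale (y axis), coloured by role. Filled points are the 4 WT and open points the 4 labelled-Flox libraries. Genes differ far more from each other, from 1.395 RPKM for Pfkfb2 to 697 for Aldoa in WT, than the groups do within a gene.

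The glucose transporters did not pass the test. Slc2a1 (GLUT1), the transporter that dominates in fetal heart, was at 189 to 218 CPM in WT and 198 to 224 CPM in labelled-Flox libraries (log2 fold change 0.055, 95% confidence interval -0.048 to 0.16). The insulin-responsive Slc2a4 (GLUT4) was at 49.5 to 57.5 CPM and 53.7 to 60.5 CPM (log2 fold change 0.088, interval -0.022 to 0.20). The high-affinity Slc2a3 (GLUT3) was at 26.1 to 30.5 CPM and 25.2 to 28.6 CPM (log2 fold change -0.033, interval -0.17 to 0.10). All 3 pairs of groups overlapped.

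None of the 16 glycolytic enzymes differed between the groups by the test. Their log2 fold changes ran from -0.051 to 0.095 with a median of 0.011, beside -0.0012 over all tested genes. The smallest FDR was 0.271 (edgeR), and 1 of the 16 (6.25%) had an unadjusted p below 0.05, beside 10.5% of all tested genes. The fold change was above 0 for 10 (62.5%, beside 49.4% of all tested genes) and below 0 for 6. Pgam2 and Pkm, the nearest to 0, changed sign under another scaling of the libraries. Every one of the 16 confidence intervals lay between -0.15 and 0.19 on the log2 scale in this fit without covariates. When the summed Y-linked transcripts entered the fit, the median became -0.027, with 12 of the 16 below 0 and 4 above. Of all 15388 genes, 7780 were below 0 and 7608 above in that fit. The values then ran from -0.13 for Eno1 to 0.14 for Hk2, with Gapdh at -0.097 and Gpi1 at -0.086. None passed (edgeR, smallest FDR = 0.404), and 4 of the 16 (25.0%) had an unadjusted p below 0.05, beside 9.83% of all genes in that fit.

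The exception in the groups' separation was Pfkp, the platelet-type phosphofructokinase, 1 of 3 forms of the enzyme that commits glucose to glycolysis. Pfkp (chr13:6579768-6648777 on GRCm38, minus strand) measured 297, 301, 319 and 305 CPM in WT libraries 1 to 4, against 323, 329, 324 and 329.9 CPM in labelled-Flox libraries 1 to 4. The groups did not overlap, and WT library 3 came nearest to the labelled-Flox values. WT libraries averaged 306 ± 9.43 CPM (SD, n = 4) and labelled-Flox libraries 326 ± 3.42 CPM (SD, n = 4). That is a log2 fold change of 0.095 (SE 0.031), which did not pass the test over all genes (edgeR FDR = 0.271). The liver and muscle forms Pfkl and Pfkm had log2 fold changes of -0.0042 and 0.0057.

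At the entry step, the hexokinase Hk1 was at 512 to 554 CPM in WT and 509 to 526 CPM in labelled-Flox libraries (log2 fold change -0.051), and the hexokinase Hk2 at 114 to 134 CPM and 117 to 141 CPM (0.057). The glucose phosphate isomerase Gpi1 was at 985 to 1007 CPM and 917 to 1018 CPM (-0.042). In the splitting of the sugar and below it, Aldoa was at 1965 to 2078 CPM in WT and 1964 to 2191 CPM in labelled-Flox libraries (0.018), and its brain-type relative Aldoc at 19.2 to 20.7 CPM and 18.9 to 23.1 CPM (0.026). These ranges overlapped in every case.

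In the steps that follow, the isomerase Tpi1 had a log2 fold change of 0.027, the dehydrogenase Gapdh of -0.026 and the ATP-forming Pgk1 of 0.029. Pgk1 measured 1313, 1321, 1346 and 1328 CPM in WT libraries 1 to 4, against 1362, 1394, 1334 and 1323 CPM in labelled-Flox libraries 1 to 4. It lies on the X chromosome and shares 53.4% of its 60-base words with other annotated genes, mainly Pgk1-rs7, so its level is uncertain. Its counts were nevertheless whole in every library. The mutases Pgam1 and Pgam2 had log2 fold changes of 0.017 and -0.00046, the enolases Eno1 and Eno3 of -0.030 and 0.016, and Pkm of 0.0017. Pgam1, Eno1, Gapdh and Pkm share 35.7%, 24.7%, 23.8% and 22.3% of their words with other annotated genes, copies or overlapping models. Expected counts can split such reads by estimate. The counts of Eno1, Gapdh and Pkm were not whole in any library, while those of Pgam1 were whole in every library. With such genes summed in, Pgk1 and Pgam1 stayed at 0.029 and 0.017. Eno1 was then at -0.051, Gapdh at -0.025 and Pkm at 0.0046.

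Of the 16 enzymes Pkm was the most even in WT, at 1963, 1975, 1971 and 1977 CPM in WT libraries 1 to 4, against 1948, 2041, 1947 and 1960 CPM in labelled-Flox libraries 1 to 4. Labelled-Flox library 2 stood above the rest. Its 95% interval ran from -0.052 to 0.055. Of the same 16, Eno1 varied most in WT relative to its mean, from 767 CPM in library 4 to 970.1 CPM in library 2.

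Lactate handling held the single call. Slc16a3 encodes MCT4, the low-affinity monocarboxylate transporter through which glycolytic cells export lactate, and lies at chr11:120948480-120960868 on GRCm38, plus strand. It measured 164.1, 158.0, 159.3 and 167.7 CPM in WT libraries 1 to 4, against 190.3, 190.5, 174.5 and 190.7 CPM in labelled-Flox libraries 1 to 4. The groups did not overlap, and labelled-Flox library 3 lay nearest to WT. WT libraries averaged 162 ± 4.46 CPM (SD, n = 4) and labelled-Flox libraries 187 ± 8.001 CPM (SD, n = 4). The log2 fold change was 0.20 (SE 0.038, 95% interval 0.12 to 0.28, edgeR FDR = 0.0433). No read-length word of Slc16a3 is shared with another gene, and its count was whole in all 8 libraries. The call was near the threshold. It was lost in 6 of the 8 fits that left out 1 library, with an FDR of 0.0887, 0.104, 0.116 and 0.0641 without WT library 1, 2, 3 or 4, and of 0.117 and 0.0845 without labelled-Flox library 1 or 2. When the summed Y-linked transcripts entered the fit, the log2 fold change was 0.23 with an FDR of 0.0897 (edgeR).

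The other lactate genes did not differ by the test. Slc16a1 (MCT1), the carrier of higher affinity that also takes lactate up, was at 169 to 177 CPM in WT and 174 to 178 CPM in labelled-Flox libraries, a log2 fold change of 0.029 with an interval from -0.037 to 0.095. Ldha, the subunit that favours lactate formation, measured 1691, 1707, 1709 and 1686 CPM in WT libraries 1 to 4, against 1774, 1824, 1720 and 1667 CPM in labelled-Flox libraries 1 to 4 (log2 fold change 0.040). Labelled-Flox libraries 1 to 3 were above all WT values and library 4 below them. Ldhb, the subunit of oxidative tissue, was at 786 to 821 CPM in WT and 730 to 828 CPM in labelled-Flox libraries (log2 fold change -0.045). With the Y-linked covariate Ldhb was at -0.11 (edgeR FDR = 0.309) and Ldha at 0.00093.

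**Figure D3:**
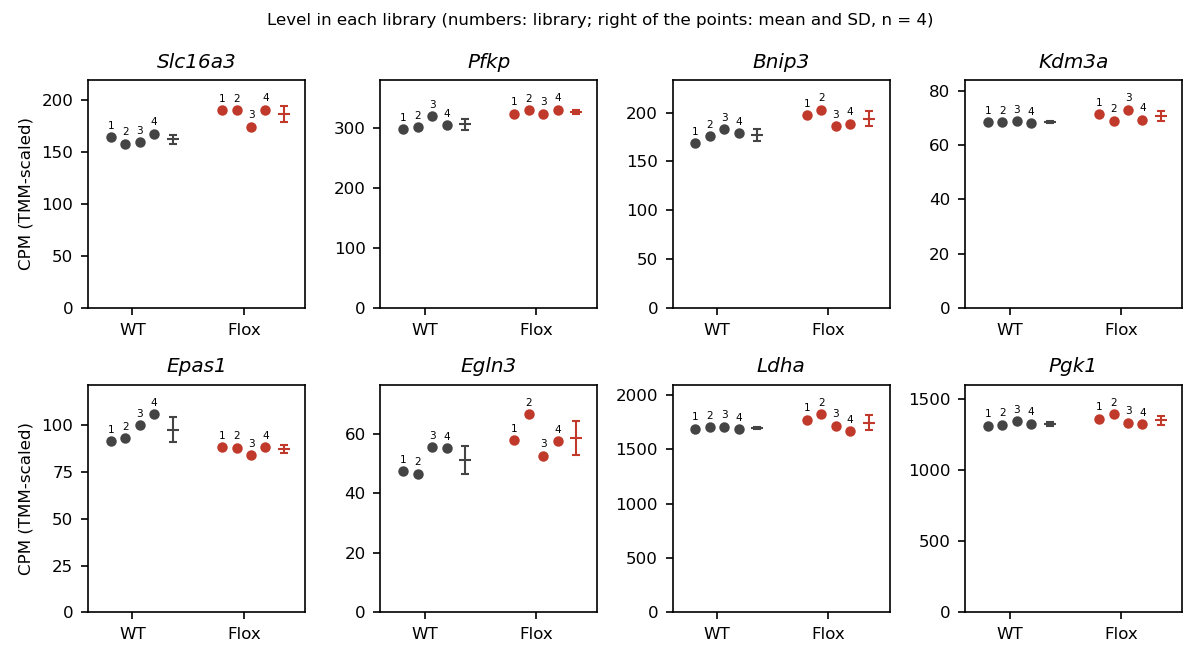
TMM-scaled CPM of 8 genes in each WT and labelled-Flox library (x axis, points numbered by library, y axis from 0), with the mean and SD of the 4 libraries to the right of the points. The groups do not overlap for Slc16a3, Pfkp, Bnip3, Kdm3a and Epas1 and overlap for Egln3, Ldha and Pgk1. Slc16a3 is at 158.0 to 167.7 CPM in WT and 174.5 to 190.7 CPM in labelled-Flox libraries.

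As a description with no test, isoform shares were taken within each family from RPKM. Ldha made up 50.1 ± 0.336% (SD, n = 4) of lactate dehydrogenase transcripts in WT and 51.6 ± 0.519% (SD, n = 4) in labelled-Flox libraries, and the groups did not overlap. Pfkp made up 13.5 ± 0.0937% of the phosphofructokinases in WT and 14.3 ± 0.527% in labelled-Flox libraries, again with no overlap, while Pfkm held 54.5% and 54.1%. Slc16a3 held 43.9 ± 0.936% of the sum of Slc16a1 and Slc16a3 in WT and 46.8 ± 1.14% in labelled-Flox libraries, with ranges that met at 45.2%. The shares of the other families overlapped between the groups. Slc2a1 held 75.2% of the 3 glucose transporters in both groups. Hk1 held 74.9% of the hexokinases in WT and 73.4% in labelled-Flox libraries, and Aldoa 99.1% of the aldolases in both. By RPKM, Pgam2 and Eno3, the forms of striated muscle, made up 56.1% of the mutases and 58.5% of the enolases in WT. By CPM without length the larger shares in WT were those of Pgam1, at 64.9%, and Eno1, at 68.7%. Which form prevails thus depends on the length used, a gene's union of exons. Pgam1 and Eno1 also share read-length words with other genes, as given above. Shares in other families also moved without length, as given in the last section.

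**Figure D4:**
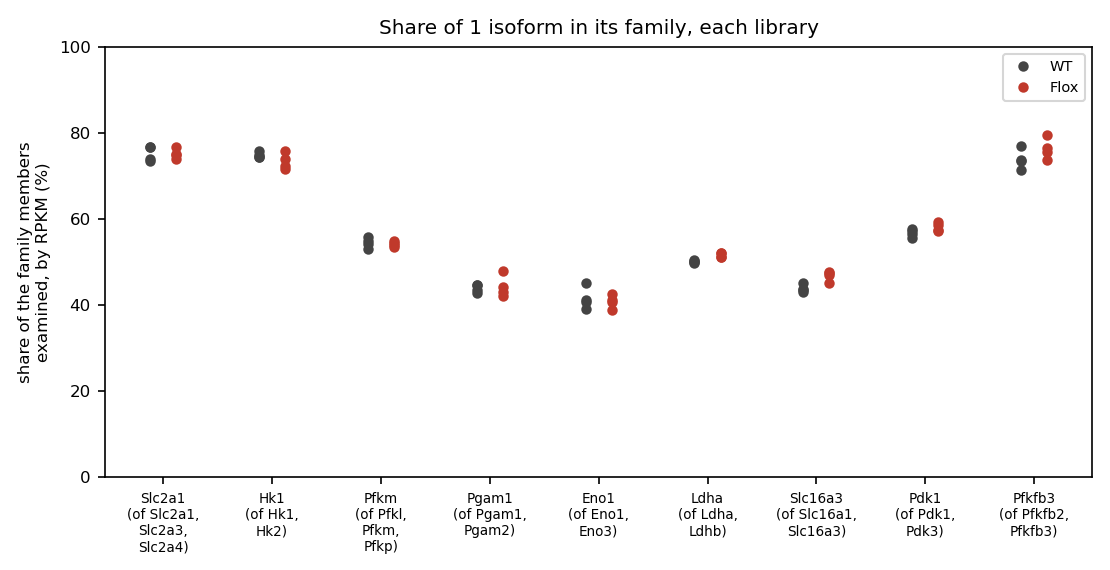
Share of 1 form of each enzyme or transporter in the family members examined, in percent by RPKM (y axis), in each of the 4 WT and 4 labelled-Flox libraries. Labels under the axis name the form and its family. Groups are apart for Ldha, at 49.7 to 50.4% in WT and 51.1 to 52.1% in labelled-Flox libraries, and overlap for the other 8 forms drawn.

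None of the regulatory kinases passed the test. Pdk1, which switches off pyruvate dehydrogenase and so holds pyruvate back from the mitochondria, was at 344 to 366 CPM in WT and 358 to 378 CPM in labelled-Flox libraries (log2 fold change 0.058, interval -0.011 to 0.13). Its relative Pdk3, X-linked like Pgk1, was at 84.9 to 90.7 CPM and 81.6 to 88.9 CPM (-0.027). Pfkfb3, the more glycolytic of the fructose 2,6-bisphosphate kinases, was at 28.1 to 33.4 CPM and 28.3 to 34.0 CPM (0.097), and Pfkfb2, the heart form, at 9.62 to 10.7 CPM and 8.39 to 10.3 CPM (-0.093).

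Among the HIF subunits and oxygen sensors, Epas1 stood lower in labelled-Flox libraries and Egln3 higher, neither with an FDR below 0.05. Epas1 encodes HIF-2 alpha, which is abundant in endothelium (chr17:86753700-86833410 on GRCm38, plus strand). It measured 91.4, 92.9, 99.8 and 106 CPM in WT libraries 1 to 4, against 88.4, 87.9, 84.1 and 88.2 CPM in labelled-Flox libraries 1 to 4. The groups did not overlap, with a gap of a few CPM between WT library 1 and labelled-Flox library 1. WT libraries averaged 97.5 ± 6.65 CPM (SD, n = 4) and labelled-Flox libraries 87.1 ± 2.05 CPM (SD, n = 4). The log2 fold change was -0.16 (SE 0.044, edgeR FDR = 0.146). When the summed Y-linked transcripts entered the fit, it became -0.11 (edgeR FDR = 0.532).

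Markers of some other cell types also had values below 0 in most of their genes, though none of these markers passed the test (edgeR). Of 12 endothelial markers, 10 had a log2 fold change below 0 (median -0.073, smallest FDR = 0.0584 by edgeR). Their groups did not overlap in 4 (33.3%, beside 6.05% of all tested genes), and 6 of the 12 had an unadjusted p below 0.05 (beside 10.5% of all). The median SE of the 12 was 0.043, beside 0.065 over all tested genes. Their sum was 1585 to 1645 CPM in WT and 1479 to 1608 CPM in labelled-Flox libraries, and none of the 12 endothelial genes was below 1 CPM in all libraries. Of 8 atrial markers 7 were below 0 (median -0.15, with 3 at an unadjusted p below 0.05), and of 10 fibroblast markers 8 were (median -0.10, with 3 at that level), with no marker of either list free of overlap. Erythroid markers went the other way, with 9 of 10 tested above 0 (median 0.12, with 1 at that level). Macrophage markers did as well, with 7 of 10 above 0 (median 0.037, with 0 at that level). The part of these lists in the Epas1 result was not tested, and in ventricle RNA fewer cells of a type and less RNA per cell cannot be told apart.

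Egln3 (PHD3), an oxygen-sensing hydroxylase that is itself a HIF target, measured 47.5, 46.7, 55.6 and 55.3 CPM in WT libraries 1 to 4, against 57.9, 66.6, 52.7 and 57.6 CPM in labelled-Flox libraries 1 to 4. Labelled-Flox library 2 was the highest, library 3 lay within the WT range, and the groups overlapped. The log2 fold change was 0.20 (SE 0.073, edgeR FDR = 0.354). Hif1a, the alpha subunit most tied to glycolysis, was at 299.9 to 319 CPM in WT and 312 to 343 CPM in labelled-Flox libraries (log2 fold change 0.059). Egln1 (PHD2), the main oxygen sensor, had a log2 fold change of 0.046 and Vhl of 0.084, both with intervals that included 0.

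The 8 non-metabolic HIF targets had a median log2 fold change of 0.049, within a range from -0.075 to 0.13. None passed an FDR of 0.05 (edgeR). The fold change was above 0 for 7 of the 8 (87.5%, beside 49.4% of all tested genes). Only 1 of the 8 (12.5%) had an unadjusted p below 0.05, close to the 10.5% of all tested genes. Bnip3, a mitochondrial receptor for mitophagy (chr7:138890836-138909519 on GRCm38, minus strand), measured 169, 176, 183 and 179 CPM in WT libraries 1 to 4, against 197, 203, 186 and 189 CPM in labelled-Flox libraries 1 to 4. The groups did not overlap, though WT library 3 and labelled-Flox library 3 were close. The log2 fold change was 0.13 (SE 0.038, edgeR FDR = 0.174). Of 20 alternatives it passed in 1, DESeq2 (FDR = 0.0460). With the Y-linked covariate the log2 fold change was 0.12 (edgeR FDR = 0.455). Bnip3 shares 14.4% of its words with other genes, and 22.3% of its exonic bases lie antisense to another annotated gene. Its values are uncertain to that extent, since the use of strand in counting is not given in the sources used here.

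Kdm3a, a histone H3K9 demethylase, measured 68.3, 68.5, 68.7 and 68.0 CPM in WT libraries 1 to 4, against 71.4, 68.9, 73.0 and 69.3 CPM in labelled-Flox libraries 1 to 4. The WT values were very even and all lay below the labelled-Flox values, and the log2 fold change was 0.047 (SE 0.030, edgeR FDR = 0.631). The collagen prolyl hydroxylase subunits P4ha1 and P4ha2 had log2 fold changes of 0.073 and 0.050.

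The stress-response gene Ndrg1 was at 51.4 to 58.1 CPM in WT and 52.9 to 60.8 CPM in labelled-Flox libraries (log2 fold change 0.049), and Mxi1, a MYC antagonist, at 56.7 to 60.9 CPM and 58.9 to 61.0 CPM (0.013). Adm, the vasodilator peptide adrenomedullin, was at 4.81 to 6.996 CPM in WT and 4.34 to 7.01 CPM in labelled-Flox libraries, from 90 to 167 counts. Its log2 fold change of -0.075 had an interval from -0.45 to 0.30. Ankrd37 rested on 80.6 to 157 counts, with a log2 fold change of 0.061 and an interval from -0.24 to 0.36. Of its exonic bases 22.7% lie antisense to another gene. A change as large as that of Slc16a3 lay within the intervals of both Adm and Ankrd37.

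Set side by side, the median log2 fold change of the non-metabolic HIF targets exceeded that of the glycolytic enzymes by 0.039, and over 20 alternatives this difference ran from 0.022 to 0.094. The highest value came with the Y-linked covariate. The HIF targets there had a median of 0.067 with 8 of 8 above 0, beside 7608 of all 15388 genes. The difference of the medians is given as a description, and the same values by library did not separate the groups. Averaged over the 16 enzymes relative to the mean of all 8 libraries, log2 CPM was -0.015, -0.0075, 0.026 and -0.019 in WT libraries 1 to 4 and 0.0075, 0.076, -0.024 and -0.045 in labelled-Flox libraries 1 to 4. Over the 8 HIF targets it was -0.057, -0.077, -0.0070 and 0.060 in WT and 0.014, 0.10, -0.073 and 0.038 in labelled-Flox libraries 1 to 4. Labelled-Flox library 2 was the highest in both sets, and labelled-Flox library 3 was below 0 in both. The difference between the sets within a library was -0.042, -0.070, -0.033 and 0.079 in WT libraries 1 to 4 and 0.0066, 0.026, -0.049 and 0.083 in labelled-Flox libraries 1 to 4, with WT libraries 1, 3 and 4 inside the labelled-Flox range.

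**Figure D5:**
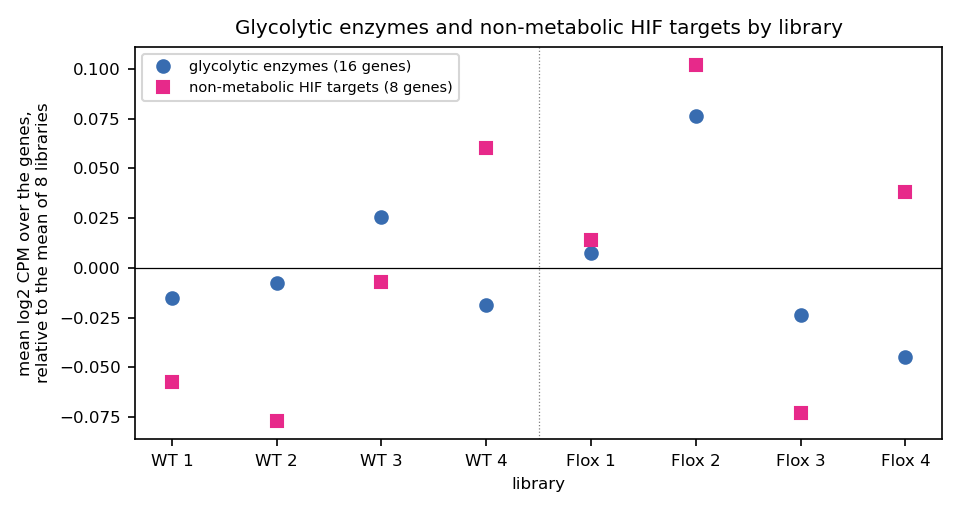
Mean log2 CPM over the 16 glycolytic enzymes (circles) and the 8 non-metabolic HIF targets (squares) in each of the 8 libraries, relative to the mean of all libraries (y axis). The groups overlap for both sets, and labelled-Flox library 2 is highest for both, at 0.076 and 0.10.

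Other genes of these pathways were examined from a list of 71, of which 65 were tested. There was 1 call, Mpc2, a subunit of the carrier that brings pyruvate into mitochondria. Mpc2 measured 70.4, 67.3, 69.1 and 67.8 CPM in WT libraries 1 to 4, against 75.7, 79.3, 82.1 and 74.6 CPM in labelled-Flox libraries 1 to 4, with no overlap (log2 fold change 0.18, SE 0.035, edgeR FDR = 0.0454). This call was lost without any 1 library other than labelled-Flox library 4, with an FDR from 0.0785 to 0.157 in those 7 fits. In the fits with all libraries it was also lost in limma voom (FDR = 0.0541) and, by edgeR, with a replicate block (FDR = 0.0533), with the GC and length correction (FDR = 0.0510) and with the Y-linked covariate (log2 fold change 0.16, FDR = 0.264). Of the 65 genes 11 (16.9%) had an unadjusted p below 0.05, beside 10.5% of all tested genes. None of 16 further glycolysis and glucose entry genes did, while 1 of 11 in pyruvate entry, 1 of 9 in oxygen sensing and 9 of 29 other HIF targets did.

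Of those 29 other HIF targets, 8 were higher and 1 lower at that unadjusted level (31.0%, beside 10.5% of all tested genes in either direction and 5.13% higher), and none passed an FDR of 0.05 (edgeR). Their median log2 fold change was 0.054, with 16 above 0 and 13 below. Their median SE was 0.045, beside 0.065 over all tested genes, so these shares too are not a like comparison. The collagen lysyl hydroxylase Plod2 measured 78.3, 79.5, 82.2 and 81.3 CPM in WT libraries 1 to 4, against 87.9, 93.8, 85.6 and 89.7 CPM in labelled-Flox libraries 1 to 4, with no overlap (log2 fold change 0.15, SE 0.034, edgeR FDR = 0.0711). Hmox1, the haem-degrading oxygenase, had a log2 fold change of 0.36 (edgeR FDR = 0.188) with WT at 12.5 to 14.9 CPM and labelled-Flox libraries at 14.9 to 20.4 CPM. The lipoprotein receptor Vldlr, at 155 to 180 CPM and 175 to 189.6 CPM, had a log2 fold change of 0.15 (edgeR FDR = 0.201). Angptl4, a lipoprotein lipase inhibitor, had one of 0.25 (edgeR FDR = 0.306), with WT at 7.99 to 9.40 CPM and labelled-Flox libraries at 9.56 to 11.4 CPM.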

How the data were processed

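Ventricle RNA from 4 WT and 4 labelled-Flox libraries was analysed, grouped by the genotype label. Per the labels, directional libraries were read as 60-base single reads. The authors deposited RSEM expected counts per gene, estimates that divide a read matching several genes. The processing notes name cutadapt, RSEM 1.3.1 and GRCm38, and the table's name gives Ensembl release 91. The aligner and the use of strand are not given in the sources used here. Of the values, 18.1% were not whole, and they were rounded. Library totals were 16761763 to 24144272.

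Symbols, positions and exonic lengths came from GENCODE release M21 (GRCm38), which matched 53360 of 53465 identifiers. A gene's union of exons divided its CPM to give RPKM. A second identifier with the symbol Aldoa was not used. Groups were compared with edgeR 4.0.16 in R 4.3.3 (filterByExpr, TMM, glmQLFit, glmQLFTest, two-sided), and p-values were adjusted by Benjamini and Hochberg across the 15388 genes tested, with FDR 0.05 as the threshold. Standard errors came from the F statistic. The fits were tested on simulated data. The 40 genes and the lists were chosen with earlier results of these data known, so no list was tested as a set. All 40 genes were named, with Nrg1 and the 5 pathway genes of smallest p. Cell type markers were listed for ventricular, atrial, endothelial, erythroid, fibroblast, macrophage, skeletal muscle, hepatocyte and neural cells. Alternatives were other scalings (RLE, upper quartile, totals), no filter, a CPM filter, DESeq2 1.42.0, limma 3.58.1 voom, an FDR of 0.1, a replicate block, a Y-linked covariate, a fit without globin, mitochondrial and sex-linked (Xist, Y) genes, a GC and length correction, leaving out each library and, added after seeing the data, summing genes that share reads.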

Additional observations from a re-analysis of the deposited data

Results flagged for a closer look

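In 6 of 114 groups of 4 values examined, 1 library stood apart from the other 3 by Dixon's criterion, and chance gives about 1 in 20, or 5.7 of them. In 3 of the 6 the library was labelled-Flox library 3, which was the lowest of its group for Slc16a3 at 174.5 CPM (the others at 190.3 to 190.7), for Epas1 at 84.06 CPM (87.88 to 88.39) and for Slc2a3 at 25.19 CPM (28.38 to 28.61). Labelled-Flox library 2 was the highest of its group for Pkm, at 2041 CPM (the others at 1947 to 1960 CPM). It was also the highest for the summed atrial cardiomyocyte markers, at 1831 CPM (the others at 1679 to 1699 CPM). Labelled-Flox library 4, the shallowest, was the lowest for the summed ventricular cardiomyocyte markers, at 45450 CPM (the others at 51440 to 51780 CPM).

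The remaining marker lists overlapped between the groups in their sums. WT libraries held 5656 to 6656 CPM and labelled-Flox libraries 5430 to 6578 CPM of fibroblast markers, 101 to 138 and 108 to 156 CPM of macrophage markers, 1363 to 1677 and 1420 to 1807 CPM of skeletal muscle markers, 18.7 to 23.4 and 22.7 to 27.3 CPM of hepatocyte markers and 12.6 to 14.6 and 11.3 to 13.2 CPM of neural and Schwann cell markers. Below 1 CPM in every library were 4 of the 10 skeletal muscle markers, among them Myod1 at 0, and 7 of the 10 hepatocyte markers.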

How the results depend on the processing

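Over all tested genes the calls numbered 81, and 190 at an FDR of 0.1, 338 with no filter, 198 in DESeq2 and 16 with the Y-linked covariate, and from 11 (without labelled-Flox library 3) to 142 (without labelled-Flox library 4) when 1 library was left out. Of the 40 genes, 3 were called with no filter (Slc16a3, Epas1 and Egln3), 2 in DESeq2 (Slc16a3 and Bnip3), 0 with the Y-linked covariate (edgeR) and 0 to 1 when 1 library was left out. Pathway genes called numbered 2 at an FDR of 0.1, 4 with no filter and 2 in DESeq2, 0 in limma voom, with the Y-linked covariate or with the GC and length correction, and 0 to 1 when 1 library was left out, beside 11 at an unadjusted p below 0.05 in the edgeR test. The count of the 40 genes whose groups did not overlap was 5 in the main fit. It was 4 when libraries were scaled by their totals and 4 with the GC and length correction. With 1 library left out it was 5 to 8, and 8 without WT library 3, labelled-Flox library 2 or labelled-Flox library 3, where fewer values have to stay apart. The median log2 fold changes of the glycolytic enzymes (-0.027 to 0.026) and of the HIF targets (0.034 to 0.071) moved by less than the spread between libraries. The cause of these changes was not tested. Slc16a3 kept its direction in all 20 alternatives, with an FDR from 0.00012 to 0.117, and passed in 13.

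Replicate numbers are shared between the groups, and what they stand for is not given in the sources used here. The deviations of same-numbered libraries correlated at 0.0944, 0.0478, 0.0476 and 0.12, beside -0.0932 to 0.0225 for the other 12 pairs. Each library thus correlated best with its own number, weakly in every case, and the main fit did not use the numbers. With the replicate number as a block there were 93 calls over all genes, of which 59 were among the 81 of the main fit. Slc16a3 was still called (FDR = 0.0341 by edgeR), and 0 pathway genes were, Mpc2 being at an FDR of 0.0533.

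Log2 fold changes close to 0 changed sign under some alternatives. Pgam2 was at 0.00075 with RLE scaling, 0.00093 in DESeq2 and 0.0053 with the GC and length correction, and Pkm at -0.0024 with upper quartile scaling and -0.00095 with no filter. With the Y-linked covariate the values that changed sign were Slc2a3 0.019, Pfkm -0.021, Aldoa -0.016, Aldoc -0.033, Tpi1 -0.018, Eno3 -0.059, Pkm -0.012 and Adm 0.058, and others kept their sign and moved by more than 1.5 times, among them Eno1 to -0.13, Gapdh to -0.097, Gpi1 to -0.086, Pgam2 to -0.089, Ldhb to -0.11, Hk2 to 0.14, Ldha to 0.00093, P4ha1 to 0.13 and P4ha2 to 0.13. With 1 library left out, the ranges were Slc2a3 from -0.069 to 0.0097, Pfkl from -0.030 to 0.017, Pfkm from -0.019 to 0.037, Aldoa from -0.013 to 0.039, Aldoc from -0.041 to 0.063, Tpi1 from -0.00013 to 0.054, Pgam2 from -0.035 to 0.060, Eno1 from -0.087 to 0.024, Eno3 from -0.032 to 0.065, Pkm from -0.013 to 0.0095, Pdk3 from -0.043 to 0.0016, Ankrd37 from -0.020 to 0.18, Adm from -0.20 to 0.038 and Mxi1 from -0.0070 to 0.028. By CPM without length the WT shares were 71.5% for Slc2a1, 9.95% for Slc2a3, 81.0% for Hk1, 37.0% for Pfkl, 31.6% for Pfkm and 31.4% for Pfkp. They were 99.0% for Aldoa, 64.9% for Pgam1, 68.7% for Eno1, 67.9% for Ldha, 51.5% for Slc16a1 and 79.9% for Pdk1. The shares by RPKM thus depend on the length used, the union of a gene's annotated exons. Whether that length matches the transcripts present was not tested. Of the 40 genes, Adm, Ankrd37 and Pfkfb2 rested on the fewest counts, and how far depth limits them was not tested.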
